A study of Mus musculus with 24 samples.

Results

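Natural killer (NK) receptor genes were examined in the maternal-fetal interface (MFI) of mice across gestation, with and without *C1qtnf6*. The 10 genes were picked by name from the deposited gene table, which lists 55401 genes: *Klrb1b*, *Klrb1c*, *Klrd1*, *Klrc1*, *Klrk1*, *Klre1*, *Klrg1*, *Ncr1*, *Cd96* and *Cd244a*. All 10 were found, and 9 of them passed the expression filter that kept 19299 genes over the 24 libraries, *Klrc1* being the exception. The study sequenced polyA RNA from whole MFI tissue, the maternal decidua together with the fetal placenta. Its groups were wild-type (WT) and homozygous C1qtnf6-knockout (KO) mice at 4 stages named by gestation day (gd), gd10.5 and gd14.5 followed by gd16.5 and gd19.5, with 3 libraries in each of the 8 groups. All mice were on the C57BL/6 background, and the knockout was a CRISPR-Cas9 deletion of 3 exons of *C1qtnf6*, which encodes the secreted protein CTRP6. The deletion is constitutive and not limited to a cell type. The labels name no dam, litter, library date or sequencing run, so p-values here measure only the spread between these libraries.

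NK cells read their surroundings through a balance of activating and inhibitory receptors at their surface, many of them C-type lectin-like proteins encoded side by side in a cluster of genes named the NK gene complex. Decidual NK (dNK) cells are the most abundant lymphocytes of the early mouse decidua, where they take part in remodeling of the spiral arteries, and they become fewer as pregnancy proceeds. *Klrb1c* encodes NK1.1, the surface marker by which NK cells of C57BL/6 mice are commonly gated, and *Ncr1* encodes NKp46, an activating receptor found on nearly all NK cells. Inhibitory signals come from *Klrg1*, a receptor for cadherins, from *Klrb1b*, whose ligand is encoded by *Clec2d*, and from the pair made by *Klrd1* (CD94) and *Klrc1* (NKG2A), which binds the non-classical histocompatibility protein encoded by *H2-T23*. *Klrk1* encodes the activating receptor NKG2D, *Klre1* a lectin-like receptor that pairs with other receptors of its family, *Cd96* a receptor of the nectin-like protein encoded by *Pvr*, and *Cd244a* the receptor 2B4, which binds CD48.

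The targeted gene matched the genotype labels in every library, with *C1qtnf6* at 64.7 to 168 CPM (counts scaled to the size of the library) in the 12 WT libraries and at 0.0340 to 2.05 CPM in the 12 KO libraries. Total counts ran from 20975717 to 37383108 per library. Detection was set at more than 3 counts in a library, and this limit equals 0.0773 to 0.149 CPM depending on the depth. Of 12 T cell markers, 7 were over the limit in all 6 libraries of gd10.5, among them *Cd28* at 3.51 to 7.58 CPM, *Cd4* at 0.254 to 0.968 CPM and *Cd3g* at 0.211 to 0.653 CPM, whereas *Cd3e* (at most 0.191 CPM) and *Cd3d* (at most 0.277 CPM) stayed close to it in all libraries. The library KO gd10.5 replicate 2 stood apart from the other 5 libraries of its stage. Its summed trophoblast marker level was 17410.5 CPM against 4674 to 8241 CPM in the others. The markers did not share one direction. *Tpbpa*, much of that sum, was at 10140 CPM against 645 to 1769 CPM, and *Prl3d1* at 151 CPM against 1353 to 2979.5 CPM. The same library had Y-linked genes that summed to 71.0 CPM against at most 0.311 CPM. It also had the lowest decidual stroma sum of its stage, 3480.4 CPM against 4231 to 14183 CPM, and the lowest *Eomes*, 12.9 CPM against 28.9 to 41.3 CPM. Fold changes of the receptor genes that rest on it are given with and without it.

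Detection of the 10 genes narrowed with gestation, as the map of libraries over the limit shows. At gd10.5, 8 genes had a count over 3 in all 6 libraries, and *Klrb1c* and *Klrc1* did so in only some of them. At gd14.5 there were 7 such genes, and *Klrb1c*, *Klrc1* and *Ncr1* were at or under the limit in all 6 libraries. The 2 late stages, gd16.5 and gd19.5, each had 5, namely *Klrb1b*, *Klrk1*, *Klrg1*, *Cd96* and *Cd244a*. *Klrd1* and *Klre1* were partly detected at both late stages, whereas *Ncr1* and *Klrc1* were at or under the limit in all 12 late libraries, and *Klrb1c* passed it only in WT gd19.5 replicate 1, with a count of 5. For all genes of the table the share over the limit in all 6 libraries moved little between stages, from 32.4% at gd10.5 to 33.4%, 31.9% and 33% at the later stages. Of the 18973 genes with a count over 3 in at least 5 of the gd10.5 libraries, 92 (0.485%) were at or under the limit in all 6 libraries of gd14.5, and *Klrb1c* and *Ncr1* were among them.

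**Figure D1:**
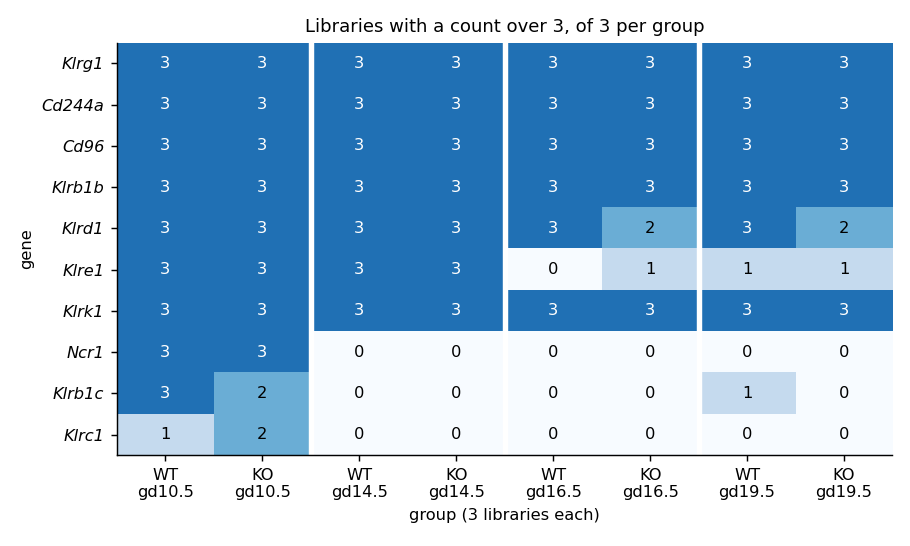
Number of libraries with a count over 3 (printed in each cell, of 3 libraries per group) for each NK receptor gene (rows) in each group of genotype and gestation day (columns). *Klrg1*, *Cd244a*, *Cd96*, *Klrb1b* and *Klrk1* have 3 of 3 in all 8 groups, and *Ncr1* has 0 in every group after gd10.5.

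Levels between genes were compared in TPM, which scales the counts by exon length and then by library. In WT gd10.5, *Klrg1* had the highest level, 110 ± 33.6 TPM (SD, n = 3). *Cd244a* at 36.6 ± 6.56 TPM and *Cd96* at 31.9 ± 7.42 TPM followed with overlapping libraries. *Klrb1b* (15.5 ± 2.98 TPM), *Klrd1* (11.8 ± 3.41 TPM) and *Ncr1* (6.77 ± 2.58 TPM) formed a middle group in which neighbours overlapped. *Klre1* (2.79 TPM), *Klrb1c* (1.86 TPM) and *Klrk1* (0.982 TPM) were lower, again with overlap between neighbours, and *Klrc1* was lowest at 0.158 TPM with its libraries wholly below those of *Klrk1*. The KO gd10.5 group gave the same order of means, from *Klrg1* at 97.2 ± 46.3 TPM to *Klrc1* at 0.295 TPM. The low place of *Klrc1* carries a limit, because its transcript is 98.9% identical to *Klrc2* over 58.6% of its length and the counting left out reads that map to several places. The levels of *Klrb1b* and *Klrb1c* carry another. They share 599 of 2228 and 413 of 2961 exon bases on the same strand with the gene model *Gm44511*. Reads there were not counted, whereas TPM divides by the full exon length.

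The order changed at its top after gd10.5. At gd14.5, *Cd244a* (14.9 ± 1.42 TPM in WT) and *Klrg1* (14.4 ± 4.80 TPM) overlapped, and at gd16.5 and gd19.5 *Cd244a* lay wholly above *Klrg1* in each genotype. In WT gd19.5, *Cd244a* was at 10.7 ± 0.728 TPM and *Klrg1* at 2.36 ± 0.463 TPM. Below them, *Klrb1b*, *Cd96* and *Klrd1* stood at 0.716, 0.709 and 0.649 TPM with overlapping libraries, and the other 5 genes lay at 0.111 TPM or less. Summed over the 10 genes, the level had medians of 204, 42.6, 19.2 and 16.1 TPM in WT at the successive stages and of 244, 44.8, 10.2 and 13.9 TPM in KO.

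**Figure D2:**
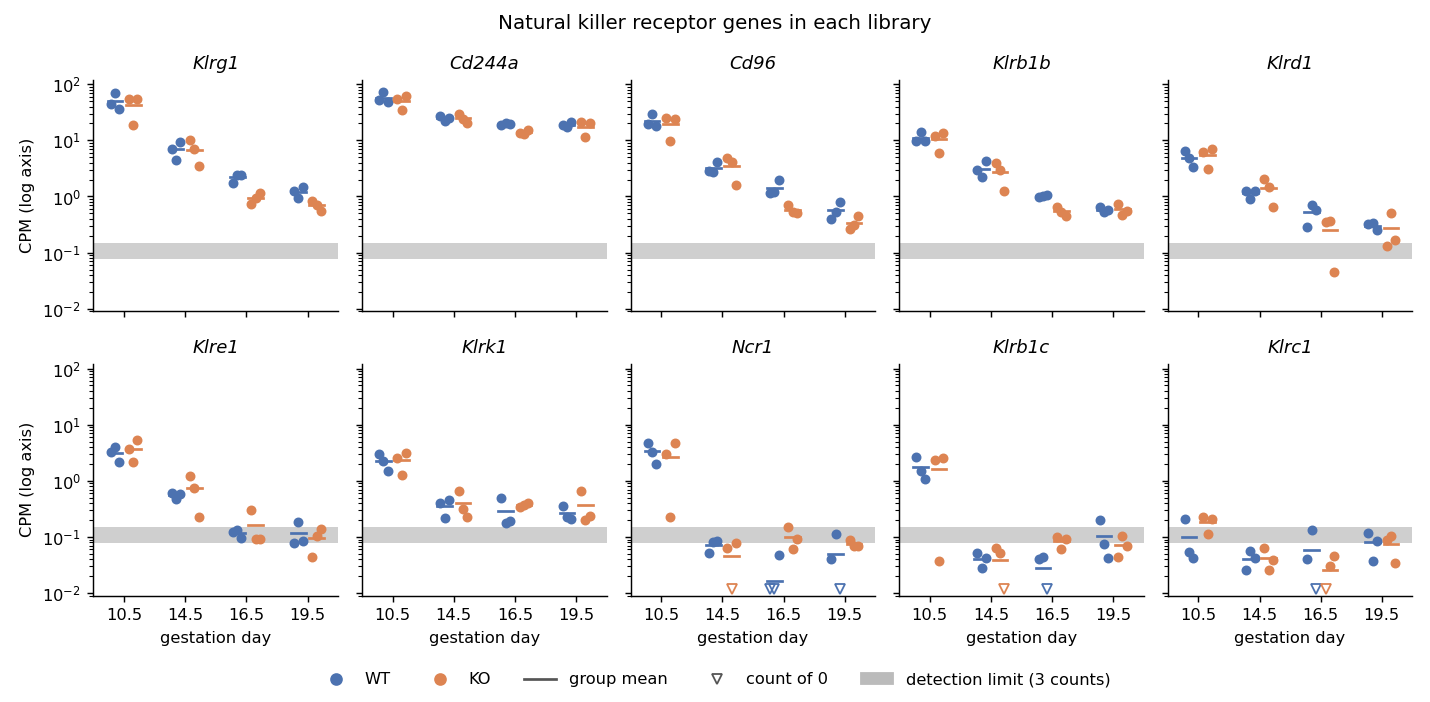
CPM of each NK receptor gene (log axis) in each of the 24 libraries by gestation day, WT in blue and KO in orange, with bars at the group means. The grey band is the range of the limit of detection (3 counts) over the libraries, and open triangles mark a count of 0. *Klrg1* declines from 19.1 to 69.3 CPM at gd10.5 to 0.545 to 1.46 CPM at gd19.5, whereas *Cd244a* stays above 11.3 CPM in all libraries.

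The fall from gd10.5 to gd14.5 took in all genes that could be followed. In each genotype, 7 of the 10 genes were over the limit in all 6 libraries of these stages, and all 7 were called lower at gd14.5 (edgeR quasi-likelihood test, adjusted p under 0.05 and log2 fold change beyond 1). Of all 19299 genes tested, 11.9% were called lower in WT and 11% in KO. In a whole tissue, fewer cells of a type and less RNA per cell cannot be told apart. The makeup of the tissue moved as well: 5 of 7 trophoblast markers tested were called higher and 2 lower in WT, and their sum went from 6803 to 8241 CPM at gd10.5 to 29813 to 32315 CPM at gd14.5. In KO the same counts were found, with sums of 4674 to 17410.5 CPM and 25935 to 31642 CPM. *Tpbpa* (16960.5 to 21519 CPM) and *Prl3b1* (8511 to 10481 CPM) made up most of the trophoblast sums at gd14.5. Of 8 decidual stroma markers, 5 were called lower and 1 higher in WT, with sums of 6750.1 to 14183 CPM and then of 4503 to 4514 CPM. In KO, 4 were called lower and 1 higher, with sums of 3480.4 to 12109 CPM and 3828 to 4839.6 CPM. The part of tissue makeup in the fall of the receptor genes was not tested.

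*Klrg1* fell steeply among the inhibitory receptors. Its WT libraries had 44.5, 69.3 and 36.0 CPM at gd10.5 and 7.02, 4.47 and 9.42 CPM at gd14.5. Its KO libraries had 54.1, 19.1 and 54.8 CPM and then 10.1, 7.0 and 3.44 CPM. Every gd10.5 library lay above every gd14.5 library. The log2 fold change was -2.85 (SE 0.381, adjusted p = 5.86e-06) in WT and -2.63 (SE 0.377, adjusted p = 1.5e-05) in KO, or -2.98 in KO without replicate 2 of gd10.5, a library whose omission left all 7 calls of this step in KO in place. The fall went on to gd16.5, with a log2 fold change of -1.66 (adjusted p = 0.00936) in WT and of -2.85 (adjusted p = 0.000213) in KO.

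*Klrb1b*, the *Clec2d* receptor, fell by less at first. It had 9.59, 14.0 and 9.60 CPM in WT gd10.5 and 2.92, 2.21 and 4.29 CPM in WT gd14.5. In KO it had 11.9, 6.01 and 13.3 CPM and then 3.87, 2.94 and 1.26 CPM. The groups of the 2 stages did not overlap in either genotype, and the log2 fold changes were -1.83 in WT (adjusted p = 8.58e-05) and -1.94 in KO (adjusted p = 6.04e-05). By gd16.5 it had fallen again, by 1.60 on the log2 scale in WT and by 2.32 in KO. Its counts leave out the reads of 599 exon bases that it shares on the same strand with the gene model *Gm44511*, which had a count of 0 in all libraries.

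*Klrd1*, the CD94 chain, had 6.36, 4.88 and 3.34 CPM in WT gd10.5 and 1.26, 0.884 and 1.26 CPM in WT gd14.5. The log2 fold change was -2.10 in WT (adjusted p = 0.000429) and -1.95 in KO (adjusted p = 0.00078). Between gd14.5 and gd16.5 it was called lower in KO (log2 fold change -2.40, adjusted p = 0.00379), where 1 of the 3 gd16.5 libraries had a count of 1. In WT the value was -1.11 with an adjusted p of 0.145. Its partner *Klrc1* had counts of 6, 2 and 1 in WT gd10.5 and of 6, 3 and 6 in KO gd10.5, and no library of a later stage had a count over 3. The summed *Klrc1* count fell from 9 to 4 between gd10.5 and gd14.5 in WT, a depth-adjusted ratio of 2.46 whose 95% counting interval of 0.685 to 10.9 includes no difference.

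*Klre1* had 3.27, 3.99 and 2.16 CPM in WT gd10.5 and 0.605, 0.470 and 0.589 CPM in WT gd14.5, a log2 fold change of -2.50 (adjusted p = 5.71e-05). The KO value was -2.31 (adjusted p = 0.00011). At gd16.5 the WT libraries were at or under the limit with counts of 3, 3 and 2, and the log2 fold change from gd14.5 was -2.18 (adjusted p = 0.0195). That call was lost when WT gd14.5 replicate 1 or any of the WT gd16.5 libraries was left out, with adjusted p-values of 0.0547 to 0.0654. In KO the value was -2.28 (adjusted p = 0.00681), and it was lost without KO gd16.5 replicate 2 (adjusted p = 0.0536).

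Among the activating receptors, *Klrk1* (NKG2D) had 3.06, 2.21 and 1.52 CPM in WT gd10.5 and 0.395, 0.221 and 0.463 CPM in WT gd14.5. It fell by 2.68 on the log2 scale in WT (adjusted p = 5.82e-05) and by 2.52 in KO (adjusted p = 0.000105). It was not called in either later step: the log2 fold changes from gd14.5 to gd16.5 were -0.25 in WT and -0.10 in KO, and all late libraries kept 4 to 15 counts. Whether its later course differs from that of the other genes was not tested.

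*Ncr1* and *Klrb1c*, the genes of NKp46 and NK1.1, went from clear detection to the limit within the same interval. *Ncr1* had counts of 137, 123 and 48 in WT gd10.5, which is 4.71, 3.32 and 2.03 CPM, and counts of 2, 3 and 2 in WT gd14.5. In KO it had counts of 81, 6 and 135 and then of 2, 0 and 2. The summed WT count fell from 308 to 7, a depth-adjusted ratio of 48.0 with a 95% counting interval of 23 to 120. For KO the sums were 222 and 4 and the ratio was 65.5 (25.2 to 243), most of the gd10.5 count coming from replicates 1 and 3. *Klrb1c* had counts of 78, 56 and 26 in WT gd10.5 and of 2, 1 and 1 in WT gd14.5, a ratio of 43.7 (16.7 to 162). The KO counts of *Klrb1c* were 62, 1 and 73 at gd10.5 and 2, 2 and 0 at gd14.5. Both genes passed the expression filter only through gd10.5, so the intervals, which cover counting error only, are given here in place of a test.

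In KO gd10.5 replicate 2 these genes were at 6 counts for *Ncr1* and 1 count for *Klrb1c*, although the same library had 81 counts of *Klrd1* and 158 of *Klrb1b*. The log2 ratio of *Ncr1* to *Klrd1* counts was -3.65 in that library, inside the range of the 6 gd14.5 libraries (-6.85 to -2.81), and -1.05 to -0.43 in the other 5 libraries of gd10.5. For *Klrb1c* to *Klrb1b* the library had -6.72, against -3.20 to -1.83 in the other 5.

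Ratios between pairs of receptors also differed between gd10.5 and gd14.5. The 3 pairs were picked after the counts had been seen, so their log2 ratios are given as a description with no test (0.5 added to each count, n = 6 libraries per stage). *Cd244a* to *Klrg1*, a pair over the limit in every library, went from 0.29 ± 0.32 (SD) to 1.93 ± 0.45, and the ranges of the stages (0.03 to 0.87 and 1.42 to 2.58) did not overlap. *Ncr1* to *Klrd1* went from -1.17 ± 1.23 to -4.25 ± 1.45 and *Klrb1c* to *Klrb1b* by -2.49, with *Ncr1* and *Klrb1c* at or under the limit in all gd14.5 libraries. Without KO gd10.5 replicate 2 the 3 differences were 1.75, -3.58 and -3.18.

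The stretch before the start of *Ncr1* is shown because that gene had the steepest fall together with *Klrb1c*, beside that of *Klrk1*, the activating receptor still over the limit at gd19.5, and that of *Cd244a*, which fell least. Each is the 250 bases before the annotated start, from RefSeq on GRCm38.p6, 5′ to 3′ on the strand of the gene, with capitals marking each match to the Runx motif TGTGGT or its reverse complement ACCACA. The positions are chr7:4337465-4337714 (+ strand) for *Ncr1*, chr6:129623865-129624114 (- strand) for *Klrk1* and chr1:171558943-171559192 (+ strand) for *Cd244a*, and no annotated exon lies in any of them.
Ncr1: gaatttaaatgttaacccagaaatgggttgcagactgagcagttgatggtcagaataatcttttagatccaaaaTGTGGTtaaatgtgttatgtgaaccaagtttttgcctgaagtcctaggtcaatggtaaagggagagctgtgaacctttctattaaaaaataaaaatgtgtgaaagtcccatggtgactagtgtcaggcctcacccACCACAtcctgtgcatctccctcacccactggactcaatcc
Klrk1: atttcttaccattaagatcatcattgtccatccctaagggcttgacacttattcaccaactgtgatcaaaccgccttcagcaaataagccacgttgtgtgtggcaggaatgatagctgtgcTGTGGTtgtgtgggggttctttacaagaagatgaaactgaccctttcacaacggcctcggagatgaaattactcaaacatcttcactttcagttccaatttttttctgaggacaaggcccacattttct
Cd244a: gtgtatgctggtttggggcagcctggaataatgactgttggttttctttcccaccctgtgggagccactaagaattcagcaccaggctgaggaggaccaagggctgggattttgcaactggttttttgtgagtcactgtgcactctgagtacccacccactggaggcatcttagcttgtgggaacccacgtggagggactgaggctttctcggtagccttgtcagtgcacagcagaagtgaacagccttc
*Ncr1* has a match beginning 176 bases before its start and another, on the opposite strand, 41 bases before it. The match of *Klrk1* begins 129 bases before its start, and *Cd244a* has none. Of the 8 receptor genes with an entry among these promoters, 6 hold the motif in the same window (*Klrb1c*, *Klrc1*, *Klrk1*, *Klre1*, *Ncr1* and *Cd96*), and so do 14% of 32851 promoters of this length. The windows of *Klrb1b*, *Klrb1c*, *Klre1* and *Cd96* hold exon bases of the gene itself in the annotation used for counting, so they do not lie wholly upstream of it. The T-box motif GGTGTGA (or TCACACC) was in none of the 8 and in 3.33% of all promoters. The Ets motif ACTTCCT (or AGGAAGT) was in that of *Klrb1b* only, beginning 14 bases before the start, and in 7.69% of all promoters. The motifs do not overlap one another in these windows. A match of letters describes the sequence and is no evidence of binding.

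The adhesion and signalling receptors *Cd96* and *Cd244a* parted after gd10.5. *Cd96* had 19.7, 29.4 and 18.1 CPM in WT gd10.5 and 2.84, 2.73 and 4.04 CPM in WT gd14.5, with log2 fold changes of -2.82 in WT (adjusted p = 3.69e-06) and -2.48 in KO (adjusted p = 1.42e-05). From gd14.5 to gd16.5 it fell again in KO (log2 fold change -2.63, adjusted p = 0.00026). The WT step of -1.16 was called with an adjusted p of 0.0461, which was lost in 16 of 33 alternative fits, for example without WT gd14.5 replicate 3 (-0.97, adjusted p = 0.158). *Cd244a* had 51.7, 71.6 and 48.5 CPM in WT gd10.5 and 26.9, 22.2 and 25.2 CPM in WT gd14.5. It fell by 1.21 on the log2 scale in WT (adjusted p = 9.65e-05) and by 1.04 in KO (adjusted p = 0.000478), the KO value being close to the threshold of 1 and short of it when any of KO gd10.5 replicate 1, KO gd10.5 replicate 3 or KO gd14.5 replicate 3 was left out (lowest 0.86) or with Y-linked expression as a covariate (0.966). Without KO gd10.5 replicate 2 the KO values of this step were -2.21 for *Klrb1b*, -2.23 for *Klrd1*, -2.81 for *Klrk1*, -2.57 for *Klre1*, -2.80 for *Cd96* and -1.24 for *Cd244a*. The later WT steps of *Cd244a* had values of -0.32 and -0.06, the later KO steps of -0.82 and 0.33, and no such step was called. The KO step from gd14.5 to gd16.5 had an adjusted p of 0.0097 and was short of the fold threshold, which it passed when libraries were scaled by total counts only (-1.04, adjusted p = 0.000719).

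From gd14.5 to gd16.5, 3 of the 6 genes over the limit in all WT libraries of both stages were called lower, and 3 of 5 in KO, namely *Klrb1b*, *Klrg1* and *Cd96* in each genotype, beside 2.32% and 3.25% of all genes. The further calls described above, *Klre1* in both genotypes and *Klrd1* in KO, involve libraries at or under the limit. From gd16.5 to gd19.5 none was called in either genotype with edgeR, while 0.57% and 1.45% of all genes were called lower. At an unadjusted p under 0.05 this last step held 1 gene in WT, *Cd96* (log2 fold change -1.32, adjusted p = 0.115), and 0 in KO, beside 20.6% and 21.8% of all genes. With DESeq2 the *Cd96* step in WT had an adjusted p of 0.0419.

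The makeup of the summed level shifted from *Klrg1* to *Cd244a*. *Klrg1* made up a median of 48.2% of the summed TPM of the 10 genes at gd10.5 (6 libraries, 43.1% to 53.6%), then 34.4%, 18.2% and 13.1% at the later stages. *Cd244a* made up 16.1% at gd10.5 (14.9% to 22.9%), then 36.1%, 61.1% and 69%. For both genes the range of gd10.5 did not overlap that of any later stage. *Klrd1* held 6.70%, 6.59%, 6.07% and 3.75%.

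**Figure D3:**
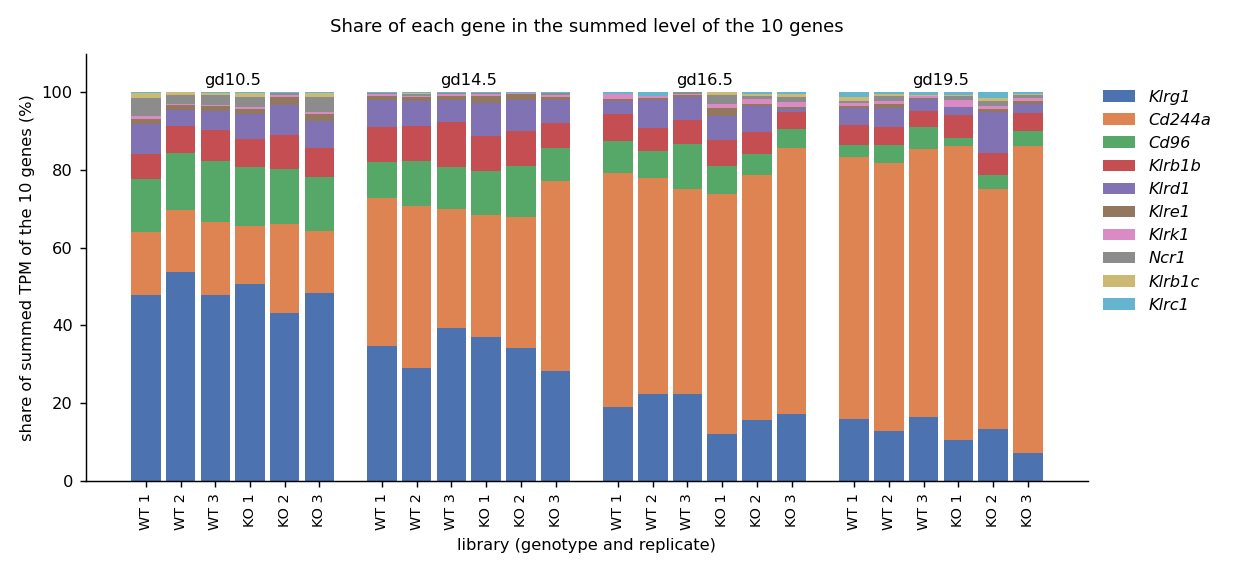
Share of each gene in the summed TPM of the 10 NK receptor genes (percent, stacked to 100) in each of the 24 libraries, grouped by gestation day. The blue share of *Klrg1* shrinks from a median of 48.2% at gd10.5 to 13.1% at gd19.5 and the orange share of *Cd244a* grows from 16.1% to 69%.

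The comparison of KO with WT at each stage asked whether loss of *C1qtnf6* goes with a change of these receptors. No receptor gene was called at any stage with edgeR. At gd10.5, 0 of 9 genes tested were called, with 0.00572% of all 17480 genes. The log2 fold changes lay between -0.34 for *Ncr1* (95% interval -2.37 to 1.68) and 0.24 for *Klre1* (-0.66 to 1.14). None of the 9 had an unadjusted p under 0.05, against 0.801% of all genes, and DESeq2 called none. Without KO gd10.5 replicate 2 all 9 values were above 0, from 0.04 for *Cd244a* to 0.50 for *Klre1*, so the sign of 6 of them turned with that library. The intervals of *Klrg1* (-1.25 to 0.81) and *Cd244a* (-0.76 to 0.42) show what size of difference these libraries could have missed.

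At gd14.5, 0 of 7 genes tested were called, with 0.0166% of all genes, and none had an unadjusted p under 0.05, against 6.78% of all genes. *Klrg1* differed by 0.01 (95% interval -0.75 to 0.77) and *Cd244a* by -0.01 (-0.29 to 0.27) on the log2 scale. *Klre1* had the largest value, 0.44 (-0.56 to 1.44). The libraries of the genotypes overlapped for all 7 genes, while they did not for 12.5% of all genes tested. KO gd14.5 replicate 3 had the lowest level of its stage for *Klrg1* (3.44 CPM), *Klrb1b* (1.26 CPM), *Klrd1* (0.650 CPM) and *Cd96* (1.61 CPM).

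At gd16.5 the 4 genes that could be tested were all lower in the 3 KO libraries than in the 3 WT libraries, without passing the test over all genes. *Klrg1* had 1.73, 2.43 and 2.43 CPM in WT and 0.747, 0.955 and 1.14 CPM in KO. *Cd96* had 1.16, 1.19 and 1.95 CPM in WT and 0.697, 0.523 and 0.501 CPM in KO. *Klrb1b* had 0.991, 1.02 and 1.07 CPM in WT and 0.647, 0.523 and 0.456 CPM in KO. *Cd244a*, the gene with the most counts, had 19.0, 20.8 and 19.7 CPM in WT and 13.2, 13.1 and 15.5 CPM in KO. For each of these genes no KO library reached the lowest WT library, which was the case for 9.62% of the 17071 genes tested.

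The log2 fold changes at gd16.5 were -1.30 for *Cd96* (SE 0.299, edgeR adjusted p = 0.363), -1.19 for *Klrg1* (SE 0.242, adjusted p = 0.354), -0.91 for *Klrb1b* (SE 0.240, adjusted p = 0.385) and -0.49 for *Cd244a* (SE 0.098, adjusted p = 0.354). None was called, with 0.00586% of all genes, which is 1 gene of 17071. The study, with DESeq2 and the same limits, called more genes at this stage, among them *Prf1* and several granzyme genes. All 4 receptor genes had an unadjusted p under 0.05 with edgeR, as did 11.1% of all genes, 5.6% of all genes being lower with such a p. The values kept their sign in all 17 alternative fits, with ranges of -1.46 to -1.03 for *Cd96* and -0.58 to -0.42 for *Cd244a*. DESeq2 gave an adjusted p of 0.0238 for *Cd244a*, whose fold change stayed short of 1, and of 0.0613 for *Klrg1*, and no adjusted p for *Cd96* and *Klrb1b*. *Klrk1*, which was not tested at this stage, overlapped between the genotypes with 0.496, 0.177 and 0.195 CPM in WT and 0.348, 0.370 and 0.410 CPM in KO.

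Markers of other cells also differed between the genotypes in level at this stage. The trophoblast sum was 46206 to 51313 CPM in KO and 28406 to 40018 CPM in WT. *Tpbpa* (16753 to 31204 CPM) and *Prl3b1* (11214 to 19651.5 CPM) made up most of it. All 7 trophoblast markers tested had an unadjusted p under 0.05 with edgeR, 4 of them higher and 3 lower in KO. Decidual stroma summed to 3297 to 3677 CPM in KO and 4031 to 4551 CPM in WT, 7 of 8 markers having a log2 fold change below 0. Uterine muscle summed to 390.1 to 469.7 CPM in KO and 509.9 to 700.5 CPM in WT, with values below 0 for all 5 markers. The T cell sum was lower in all KO libraries (3.78 to 5.01 CPM) than in all WT libraries (5.21 to 5.54 CPM), and the B cell sum was higher in all KO libraries (2.735 to 3.88 CPM, against 1.60 to 2.726 CPM in WT). NK identity genes overlapped, with sums of 264 to 281 CPM in KO and 258 to 308 CPM in WT. Their median log2 fold change was -0.070 over the 6 genes tested, 4 of which had a value below 0. With edgeR, 2 of the 6 had an unadjusted p under 0.05. Macrophage sums (936 to 1082 CPM in KO and 895 to 1259 CPM in WT) and mast cell sums (191 to 254 and 235 to 322 CPM) overlapped as well. Most of the NK identity sum came from *Itga1* (87.9 to 135 CPM), *Itga2* (58.4 to 84.2 CPM) and *Il2rb* (59.5 to 90.3 CPM). It says little about *Eomes* (1.14 to 2.14 CPM). *Csf1r* (688 to 998 CPM) made up most of the macrophage sum and *Kit* (184 to 316 CPM) most of the mast cell sum. None of these lists had a called gene, and their part in the lower receptor levels was not tested. Y-linked genes summed to 1.14, 188 and 194 CPM in the KO libraries and to 0.486, 0.663 and 89.1 CPM in the WT libraries of this stage, each set in rising order.

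**Figure D4:**
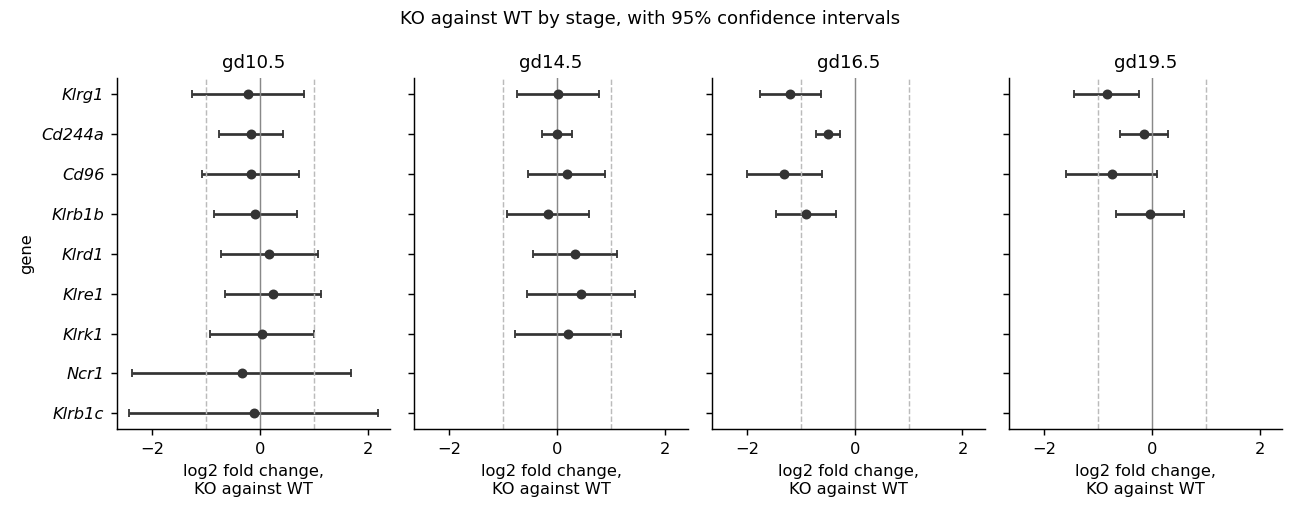
Log2 fold change of KO against WT for each NK receptor gene tested at each gestation day (points), with 95% confidence intervals (lines) from edgeR. Solid grey lines mark 0 and dashed lines the threshold of 1 in either direction. At gd16.5 the intervals of all 4 genes lie below 0, at gd19.5 that of *Klrg1* does, and at gd10.5 and gd14.5 all intervals include 0.

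At gd19.5, *Klrg1* was again lower in every KO library (0.830, 0.716 and 0.545 CPM) than in every WT library (1.27, 0.933 and 1.46 CPM), as were 8.55% of the 17397 genes tested. Its log2 fold change was -0.84 (SE 0.266, unadjusted p = 0.0106 and adjusted p = 0.238 with edgeR), and 13.5% of all genes had an unadjusted p under 0.05. *Cd96* had 0.262, 0.307 and 0.443 CPM in KO and 0.398, 0.523 and 0.792 CPM in WT, which overlap, with a log2 fold change of -0.75 (95% interval -1.59 to 0.09, adjusted p = 0.412). *Klrb1b* and *Cd244a* showed values of -0.03 (-0.66 to 0.60) and -0.14 (-0.59 to 0.30). None of the 4 genes was called, with 0.023% of all genes. For *Cd244a* the spread of KO came from replicate 2, at 11.3 CPM against 20.8 and 20.6 CPM in the others, and without that library the value was 0.10. Marker sums differed here as well. T cell sums were lower in all KO libraries (3.28 to 3.68 CPM) than in all WT libraries (3.88 to 4.90 CPM), while those of NK identity genes (277 to 293 CPM in KO, 237 to 247 CPM in WT) and macrophages (974 to 1009 CPM in KO, 816 to 921 CPM in WT) were higher in all KO libraries. Here too *Itga1* (87.1 to 122 CPM), *Itga2* (68.5 to 95.6 CPM) and *Il2rb* (49.6 to 65.9 CPM) made up most of the NK identity sum. *Eomes* was at 0.742 to 1.23 CPM. Of 6 NK identity genes tested, 2 had a log2 fold change below 0 and 3 an unadjusted p under 0.05 with edgeR. Most of the macrophage sum was *Csf1r* (606 to 807 CPM). All 5 uterine muscle markers had a log2 fold change above 0, 4 of them with an unadjusted p under 0.05, although their sums overlapped (587.5 to 779 and 544.5 to 657 CPM). Sums of trophoblast, decidual stroma, B cell and mast cell markers overlapped. None of the lists had a called gene, and their part in the level of *Klrg1* was not tested.

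**Figure D5:**
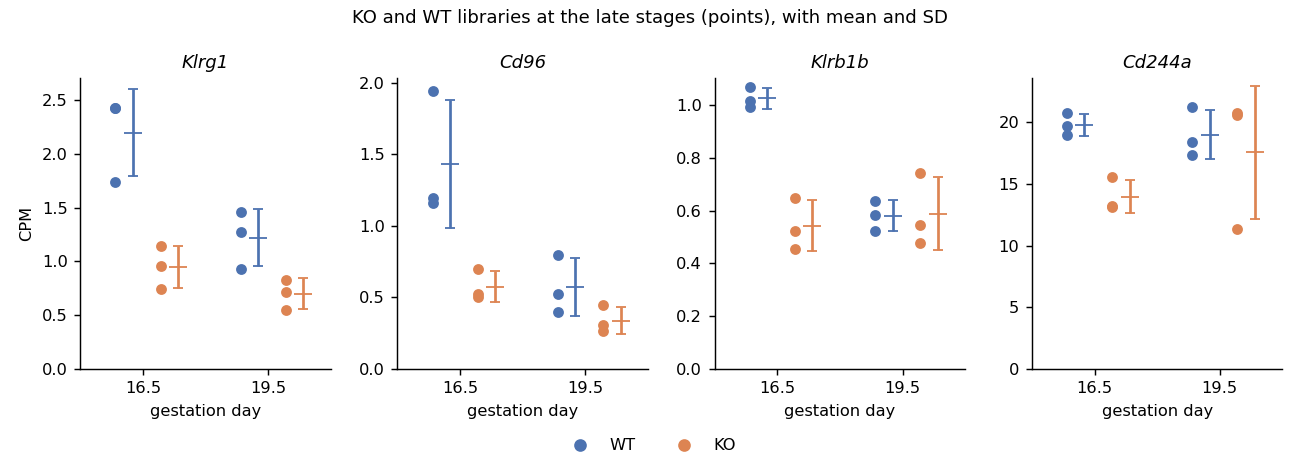
CPM of *Klrg1*, *Cd96*, *Klrb1b* and *Cd244a* in each WT (blue) and KO (orange) library at gd16.5 and gd19.5 (points), with mean and SD (n = 3) beside them, on linear axes that start at 0 and differ between genes. At gd16.5 the orange points lie below all blue points for each gene, and at gd19.5 they do so for *Klrg1*.

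Over the 4 stages together, 0 of the 9 genes were called for the mean KO effect, with 0.00518% of all genes. Among the 5 genes over the limit in all 24 libraries, the log2 values were -0.56 for *Klrg1* (95% interval -1.04 to -0.08), -0.52 for *Cd96* (-0.98 to -0.06), -0.30 for *Klrb1b* (-0.70 to 0.09), -0.20 for *Cd244a* (-0.42 to 0.02) and 0.25 for *Klrk1* (-0.29 to 0.78). Without KO gd10.5 replicate 2 these values were -0.47, -0.44, -0.23, -0.15 and 0.32. The edgeR adjusted p-values of these 5 lay between 0.685 and 0.912. The genotype-by-stage interaction was past an adjusted p of 0.05 for none of the 9 genes, whose values were 0.74 to 0.984, and for 0% of all genes, while 7.23% had an unadjusted p under 0.05. The lower KO levels at gd16.5 were thus not shown to differ from the KO effect at the other stages.

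The other genes of the same pathway were taken from lists written from general knowledge. Calls between gd10.5 and gd14.5 are counted over the genes with more than 3 counts in every library of both stages, a condition that leaves out genes that went below the limit. Of 26 further NK receptors, 18 passed the expression filter and 8 met this condition in WT, where 5 were called lower and 1 higher. In KO 8 met it, with 4 called lower and 1 higher. Of the other 10 that passed the filter, 5 in WT and 6 in KO were at or under the limit in all gd14.5 libraries. *Klra7*, an inhibitory Ly49 receptor, fell by 3.18 on the log2 scale in WT, while *Cd160* rose by 1.14. The Ly49 genes are close paralogs, so reads shared between them are missing from their counts. At gd16.5, 0 of 5 such receptors tested were called between KO and WT.

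Of 16 adaptor and signalling genes, 13 met the condition in WT and 9 of these were called lower at gd14.5, as were 8 of 14 in KO. *Tyrobp*, the adaptor DAP12 of activating receptors, went from 12.7 to 44.1 CPM over the 6 gd10.5 libraries to 4.32 to 7.30 CPM at gd14.5 (WT log2 fold change -2.42). *Sh2d1b2*, which encodes an adaptor of the SAP family, fell by 2.74 in WT. The study lists this gene as lower in KO than in WT at gd16.5. Of 12 adaptor and signalling genes tested there with edgeR, 0 were called and 2 had an unadjusted p under 0.05. *Sh2d1a*, the adaptor SAP that works with *Cd244a*, was at 0.343 to 1.92 CPM at gd10.5 and 0.0552 to 0.440 CPM at gd14.5, and *Hcst*, the adaptor DAP10 of NKG2D, at 0.533 to 0.917 CPM and 0.0829 to 0.294 CPM, both reaching the limit. Of 6 NK identity genes that met the condition in each genotype, 4 were called lower in WT and 3 in KO. *Eomes*, a transcription factor of the NK lineage, was at 12.9 to 41.3 CPM at gd10.5, 3.09 to 6.79 CPM at gd14.5 and 0.742 to 1.23 CPM at gd19.5.

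The genes of the receptors' ligands did not share one direction. Of 11 that met the condition in each genotype, 2 were called higher and 2 lower at gd14.5 in WT, and 2 lower in KO. *Cd48*, the ligand of *Cd244a*, fell by 2.36 and *Nectin1* by 1.75. *Pvr*, the ligand of *Cd96*, had 128 to 144 CPM at gd10.5 and 134 to 162 CPM at gd14.5 (WT log2 fold change 0.08), and *H2-T23* had 39.4 to 65.8 CPM and 51.0 to 65.4 CPM (0.16). *Clec2d*, the ligand of *Klrb1b*, had a value of -0.76, short of the threshold. *H60c*, a ligand of NKG2D, was at or near the limit at gd10.5, at 0 to 0.266 CPM, and was read at 0.953 to 2.03 CPM at gd14.5 and 8.16 to 10.2 CPM at gd19.5. In KO against WT at gd16.5, 12 of the 13 ligand genes had a value below 0, as did 48.4% of all genes, with a median of -0.15, and none was called.

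Some genes of T cells were also read at lower levels: 3 of the 5 that met the condition in WT were called lower at gd14.5, and 3 of 6 in KO. The other 2 in WT, *Trac* and *Trdc*, were not called and did not go down. Over both genotypes *Trac* had 0.346 to 0.951 CPM at gd10.5 and 0.629 to 1.00 CPM at gd14.5. *Trdc* had 0.726 to 1.08 CPM and then 1.21 to 2.30 CPM. The whole list of T cell markers summed to 11.5 to 19.6 CPM in WT gd10.5 and 5.94 to 6.81 CPM in WT gd14.5. *Trbc1* fell by 3.09 on the log2 scale, whereas *Cd3e* and *Cd3d*, which define the T cell receptor complex, were too low to be tested.

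The levels of the 9 genes past the filter moved together over the 24 libraries, with pairwise Pearson's r of 0.727 to 0.989 (median 0.876, 36 pairs, log2 CPM). The points share the 4 stages, and after the 8 group means were taken off r was 0.033 to 0.864 (median 0.528). The genes most like the receptors in level were *Scin* (mean r with the 9 genes 0.936), *Ceacam10*, *Nars*, *Atp8b4*, *Gpr141*, *Akna*, *Angpt2* and *Traf1*. *Scin*, which encodes an actin-severing protein, had a median of 94.6 CPM at gd10.5, 7.82 CPM at gd14.5 and 1.94 CPM at gd19.5. Within groups the highest mean r belonged to *Sh2d2a* (0.709), *Scin* (0.707), *Ptprc* (0.695), *Gzmb* (0.695), *Dut*, *Havcr2*, *Clec2d* and *Hoxa11os*. *Ptprc* encodes the pan-leukocyte marker CD45, *Gzmb* the effector protease granzyme B, and *Sh2d2a* an adaptor of lymphocytes. These correlations are descriptions over libraries that share depth, tissue makeup and the library KO gd10.5 replicate 2.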

How the data were processed

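PolyA RNA of the MFI was sequenced by the authors as 150 bp paired-end reads from stranded libraries, trimmed with Trim Galore 0.6.4, aligned to GRCm38 with STAR 2.7.3a and assigned to genes with featureCounts of Subread 2.0.0. The authors deposited raw read counts per gene with the exon length, without normalization. By default this counting ignores strand and drops multi-mapping reads and reads of 2 overlapping genes. The spread between replicates exceeded counting error (chi-square per degree of freedom 7.86 to 169 over 24 pairs).

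Groups came from the labels, and KO libraries are numbered as in their descriptions. The quasi-likelihood test of edgeR 4.0.16 in R 4.3.3 was run after TMM scaling on genes kept by filterByExpr, with min.count at 10 and min.total.count at 15. KO was compared with WT on the 6 libraries of each stage. Stage contrasts, the mean KO effect and the interaction were taken from a fit of all 24 libraries with a mean per group. A call needed a Benjamini-Hochberg adjusted p under 0.05 over all genes tested and, except for the interaction, a log2 fold change beyond 1. Fold changes are given only where a group had over 3 counts in every library. CPM used TMM library sizes, and TPM the deposited exon lengths. On simulated data of KO against WT at gd16.5, 195 of 200 genes changed by a log2 fold change of 2 were called, with 1 false call among 16865 genes. The simulation set the same dispersion for every gene, drew the changed genes from all levels, and used a larger effect than the receptor genes had (*Cd96* at -1.30 being furthest from 0). It checks the code and does not measure the power of the tests of the receptor genes. The alternatives were the size factors of DESeq2 (RLE), total counts only, no expression filter, at least 10 counts in every library, DESeq2 1.42.0, limma 3.58.1 voom, a replicate block, a covariate for Y-linked expression, omission of each library, other thresholds and a fit of all libraries together. The members, the gene lists and the tests were chosen with earlier results of these data known. The genes named are the 10 members, members of the lists, and the 8 genes most correlated with the members by each measure. Promoters came from RefSeq (GRCm38.p6), and transcripts were compared with BLAST 2.17.0. Proteins were not analysed here.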

Additional observations from a re-analysis of the deposited data

How the results depend on the processing

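Of 339 counts of called receptor genes under alternative settings, 330 stayed within 1.5 times the reported count. All 102 counts for KO against WT within a stage and for the mean KO effect were 0. The lowest adjusted p of the interaction among the 9 genes was 0.353, for *Cd96* with edgeR without KO gd10.5 replicate 2. With at least 10 counts in every library, where only 3 of the genes remained to be tested, gd14.5 against gd10.5 gave 3 calls in WT and 3 in KO, and gd16.5 against gd14.5 gave 2 and 2. DESeq2 gave 1 call for WT gd19.5 against gd16.5. With single libraries left out, the calls among all 9 genes tested ranged from 2 to 4 for WT gd16.5 against gd14.5 (2 without WT gd14.5 replicate 1, WT gd16.5 replicate 1 or WT gd16.5 replicate 2) and from 0 to 1 for WT gd19.5 against gd16.5 (1 without KO gd10.5 replicate 2). The cause was not tested. Whether replicate numbers pair the libraries was not settled. The correlation of same-numbered deviations ran from -0.47 to 0.42 and exceeded 0.1 for every pair at 0 stages. At gd19.5 the same-numbered pairs had 0.104, 0.043 and 0.123, and the highest of the other pairs had 0.009. With 3 libraries in a group, such values cannot exclude a pairing. The fit with a replicate block kept every count of calls within 1.5 times the reported count. In it the *Cd96* step from gd14.5 to gd16.5 in WT lost its call, with an edgeR adjusted p of 0.0617.

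Of 2265 single-gene values, 2173 kept sign and side of the threshold, and 63 values of 24 results changed sign, none of them with a reported log2 value beyond 0.5. For KO against WT at gd10.5, Y-linked expression as a covariate gave 0.22 for *Klrb1b*, 0.65 for *Klrb1c*, 0.20 for *Klrg1*, 0.39 for *Ncr1*, 0.20 for *Cd96* and 0.064 for *Cd244a*, limma voom gave 0.10 for *Klrb1b*, 0.046 for *Klrg1* and 0.079 for *Cd96*, and the replicate block gave -0.0031 for *Klrk1*. With single libraries left out, gd10.5 values ran from -0.34 to 0.038 for *Cd244a*, -0.39 to 0.15 for *Cd96*, -0.30 to 0.19 for *Klrb1b*, -0.59 to 0.45 for *Klrb1c*, -0.054 to 0.46 for *Klrd1*, -0.10 to 0.50 for *Klre1*, -0.44 to 0.13 for *Klrg1*, -0.24 to 0.33 for *Klrk1* and -1.04 to 0.20 for *Ncr1*. At gd14.5, *Klrg1* was -0.025 with DESeq2, -0.0039 with the replicate block, -0.034 with the Y-linked covariate and -0.0062 in a fit of all libraries. With single libraries left out there, the values ran from -0.15 to 0.10 for *Cd244a*, -0.10 to 0.50 for *Cd96*, -0.51 to 0.14 for *Klrb1b*, -0.038 to 0.63 for *Klrd1*, -0.083 to 0.81 for *Klre1*, -0.38 to 0.31 for *Klrg1* and -0.35 to 0.43 for *Klrk1*. At gd19.5, *Klrb1b* was 0.048 with voom, 0.086 with the Y-linked covariate and 0.0017 in a fit of all libraries, and with single libraries left out ran from -0.20 to 0.11, *Cd244a* from -0.28 to 0.10. Among stage contrasts, total counts gave 0.025 for *Cd244a* in WT and 0.029 for *Klrk1* in KO from gd16.5 to gd19.5, and for *Klrk1* in KO from gd14.5 to gd16.5 voom gave 0.038 and the Y-linked covariate 0.12. With single libraries left out, WT gd19.5 against gd16.5 ran from -0.15 to 0.0018 for *Cd244a* and -0.43 to 0.49 for *Klrk1*, KO gd19.5 against gd16.5 from -0.070 to 0.24 for *Klrb1b* and -0.75 to 0.20 for *Klrk1*, WT gd16.5 against gd14.5 from -0.90 to 0.0046 for *Klrk1*, and KO gd16.5 against gd14.5 from -0.33 to 0.45 for *Klrk1*. At late stages the counts of *Klrd1*, *Klre1* and *Klrk1* are too low for these libraries to show a difference of moderate size.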
